A study of Mus musculus with 32 samples.

Results

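The miR-101 family is a small group of microRNAs that share most of their mature 3p strand. MicroRNAs are short RNAs that guide the Argonaute proteins to messenger RNAs, mainly through the seed, which spans bases 2 to 8 of the mature strand. miR-101 is known as a repressor of Ezh2, the histone methyltransferase of the Polycomb repressive complex that places the H3K27 methyl mark, and of Ptgs2, the inducible cyclooxygenase. In human tumours it is often lost, with Ezh2 raised. The members here are the rows of the deposited miRNA table named miR-101a, miR-101b or miR-101c, on either arm. There were 6 such rows among 1722. They carry 5 names, of which 4 reached a mean of at least 1 RPM and were tested among 543 rows of the series. miR-101c was a near copy of miR-101a-3p, so 3 separate strands were tested, namely miR-101a-3p, miR-101b-3p and miR-101a-5p.

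The libraries came from mesenteric arteries, the resistance-regulating vessels of the gut, of male C57BL/6J wild-type mice aged 10 to 12 weeks. Angiotensin II (Ang II), the peptide hormone that constricts arteries and raises blood pressure, was infused under the skin at 1000 ng/kg/min from an implanted pump, and the control mice had sham surgery. Crossing the treatments with a duration of 7 or 14 days gave 4 groups (7-day Sham and 14-day Sham as controls, 7-day Ang II and 14-day Ang II) of 8 libraries, each made from 1 µg of total RNA after fat and veins had been dissected away. The labels state 10 mice per group, and do not say outright that each library is 1 mouse. The study asks how arterial miRNAs change during Ang II infusion.

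The members were chosen by their 14-day values, since miR-101a-3p and miR-101c were among the miRNAs that were lower with Ang II at that time. The members' values of the 14-day comparison, and of every comparison that holds a 14-day group, are therefore given as a description without a p-value. The 7-day comparison sets other libraries against each other and was tested. The spread used in that test, and the filter on the mean, come from all 32 libraries.

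The mature strands show how close the members are in sequence. They are written 5′ to 3′ with the seed in capitals, from RefSeq on GRCm38.p6.
miR-101a-3p: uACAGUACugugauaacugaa
miR-101c: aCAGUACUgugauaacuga
miR-101b-3p: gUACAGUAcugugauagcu
miR-101a-5p: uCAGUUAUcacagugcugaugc
miR-101b-5p: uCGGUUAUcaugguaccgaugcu
miR-144-3p: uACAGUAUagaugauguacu
miR-101c, with 19 bases, is contained whole in miR-101a-3p, with 21, and starts 1 base after it. miR-101b-3p is annotated as starting 1 base before miR-101a-3p, and over the bases they share it differs by A16G, counted from the 5′ end of miR-101a-3p. As annotated, the 3 strands of the 3p arm therefore have 3 different seeds, each shifted by 1 base, although all hold the same run of 14 bases. miR-144-3p, the red blood cell miRNA, is shown because it shares its leading 7 bases with miR-101a-3p and departs at C8U. The 5p strands of the a and b hairpins differ at 5 of the 22 bases compared.

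The members come from separate places in the genome. Mir101a lies at chr4:101346945-101347027 (GRCm38, minus strand) and overlaps an exon of E130102H24Rik, a long noncoding RNA on the same strand. Mir101b lies at chr19:29135279-29135375 on the plus strand, in an intron of the protein-coding gene Rcl1. Mir101c is annotated at chr9:3038669-3038743 on the minus strand, outside other annotated genes. The gene nearest to its mature strand, Gm10715, is 364 bases from that strand. The hairpins of Mir101a and Mir101b follow, with the mature strands in capitals, since they show that each holds a similar 3p arm.
Mir101a hairpin: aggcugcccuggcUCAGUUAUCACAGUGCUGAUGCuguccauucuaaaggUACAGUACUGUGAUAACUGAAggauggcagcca
Mir101b hairpin: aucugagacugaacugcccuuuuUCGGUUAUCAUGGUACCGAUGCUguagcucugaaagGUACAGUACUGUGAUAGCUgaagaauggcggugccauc
The 19 bases of miR-101c occur in the Mir101a hairpin and not in the Mir101b hairpin.

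The deposited value of a row is a normalised signal, called RPM here, in which every read of a library has the same worth. That worth was 0.0296 to 0.117 RPM. Over the 1030 distinct rows the recovered reads summed to between 11.4 and 18.8 M (mega) per library. Rows can hold the same reads, as those of miR-101a-3p and miR-101c do, so a read may count more than once. Markers of smooth muscle, miR-143 and miR-145, had reads for 4 of 4 strands and summed to 196039 to 739444 RPM per library. Markers of other cell types were present as well. The 2 endothelial strands of miR-126 summed to 12975 to 35282 RPM, and every marker list had reads in at least 1 library of each group. Each library's title is a number, taken here as that of a mouse, and numbers that share their leading 26, 27, 28 or 30 are called a mouse-number series. The labels do not say what the number or a series stands for.

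miR-101a-3p, the guide strand of the a hairpin, dominated the family. It averaged 1554 ± 278 RPM (SD, n = 32), which placed it at rank 36 among the 1030 distinct rows, and held 14897 to 48913 reads per library. miR-101b-3p averaged 172 ± 19.8 RPM (SD, n = 32) with 1549 to 5934 reads. With the near copy counted once, miR-101a-3p made up 89.7% ± 0.891 of the family's summed RPM and miR-101b-3p 10.0% ± 0.867 (SD, n = 32). These shares rest on the choice of row: where both copies were counted, miR-101a-3p and miR-101c took 47.3% each. Both sums leave out a second row named miR-101c. That row averaged 214 RPM and exceeded miR-101b-3p in all 32 libraries, so with it each share would be smaller.

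The 5p strands were rare. miR-101a-5p averaged 4.93 ± 1.18 RPM (SD, n = 32) with 27 to 170 reads, and its level was 0.181% to 0.462% of that of miR-101a-3p in the same library. miR-101b-5p had 1 or 2 reads in 5 of 32 libraries and none in the others, a mean of 0.0117 RPM, and did not pass the filter. The limit that a count of 0 allows, 3 reads, was worth 0.0888 to 0.351 RPM, so its level could not be compared between groups at this depth. It had no read in 7-day Sham and 2 reads in all in each of the other groups.

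The row of miR-101c differed from that of miR-101a-3p by 0 to 5 reads per library. In 5 libraries the reads were equal, and over all libraries the rows held 810172 and 810251 reads. Each row's reads are therefore those of the other, and nothing here can be said of the Mir101c locus on its own. All values given for miR-101a-3p hold for miR-101c within 0.01 on the log2 scale.

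After 7 days of Ang II, no member of the family passed the test, and each tested strand had a mean below that of sham. In 7-day Sham, miR-101a-3p had a lowest value of 1062, a median of 1660 and a highest of 2087 RPM. In 7-day Ang II these values were 1222, 1458 and 1707 RPM. The groups overlapped: 6 of 8 Ang II libraries lay below the sham median, 3 sham libraries lay above every Ang II library, and the lowest of all 16 was a sham library. The means were 1669 ± 314 and 1482 ± 174 RPM (SD, n = 8 each), a log2 fold change of -0.16 ± 0.12 (SE) with a limma adjusted p of 0.861. The 95% interval of the difference ran from -0.41 to 0.09.

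The second strand from another locus, miR-101b-3p, ran from 144 through a median of 174 to 205 RPM in 7-day Sham, and from 147 through 169 to 184 RPM in 7-day Ang II. These groups overlapped almost fully. Its log2 fold change was -0.07 ± 0.09 (SE, limma adjusted p = 0.953, 95% interval -0.25 to 0.11). The passenger strand miR-101a-5p had medians of 4.96 RPM in sham and 4.27 RPM with Ang II. Its values ran from 3.46 to 8.16 RPM in sham and up to 6.61 RPM with Ang II. Its log2 fold change was -0.09 ± 0.14 (SE, limma adjusted p = 0.953). Of the 3 strands, 0 were called, beside 0.184% of all 543 rows. That background was 1 row called by limma, with 37 at an unadjusted p under 0.05, and edgeR and DESeq2 each called 1. The row, named here after its values were seen, was the smooth muscle marker miR-145a-3p, which fell from 895 ± 159 to 596 ± 142 RPM (SD, n = 8 each, log2 fold change -0.60 ± 0.13 SE, limma adjusted p = 0.0280). It was called under 16 of 30 alternatives and under 6 of the 16 that left out 1 library, with log2 fold changes of -0.69 to -0.48 and adjusted p 0.0023 to 0.994 over the 30. Of the 4 smooth muscle strands 0 had a fold change above 0, with a median of -0.23 against -0.01 over all rows, of which 53.4% were below 0. The summed RPM of these strands went the other way, with medians of 492452 in 7-day Sham and 512725 in 7-day Ang II and overlapping ranges. The part of this in the 7-day level of miR-101 was not tested.

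The 7-day value of miR-101a-3p differed between the mouse-number series. Within series 27 (4 sham and 5 Ang II libraries) the log2 fold change was -0.32 ± 0.13 (SE, limma adjusted p = 0.537), and within series 28 (4 and 3) it was 0.050 ± 0.21 (SE, limma adjusted p = 0.900). For miR-101b-3p the values were -0.12 and -0.02 in the same order. Without 7-day Sham replicate 6, the library with the lowest level, the log2 fold change of miR-101a-3p was -0.25.

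At 14 days the family was lower with Ang II, and this is the contrast on which it was chosen. In 14-day Sham, miR-101a-3p had a lowest value of 1546, a median of 1732 and a highest of 2030 RPM. In 14-day Ang II its values were 839, 1048, 1338, 1361, 1432, 1448, 1543 and 1585 RPM. The lowest 7 of these lay below every sham library, and the highest lay above 1 sham library. The means were 1739 ± 164 and 1324 ± 255 RPM (SD, n = 8 each). The level was 0.750-fold, with a log2 fold change of -0.41 ± 0.12 (SE).

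**Figure D1:**
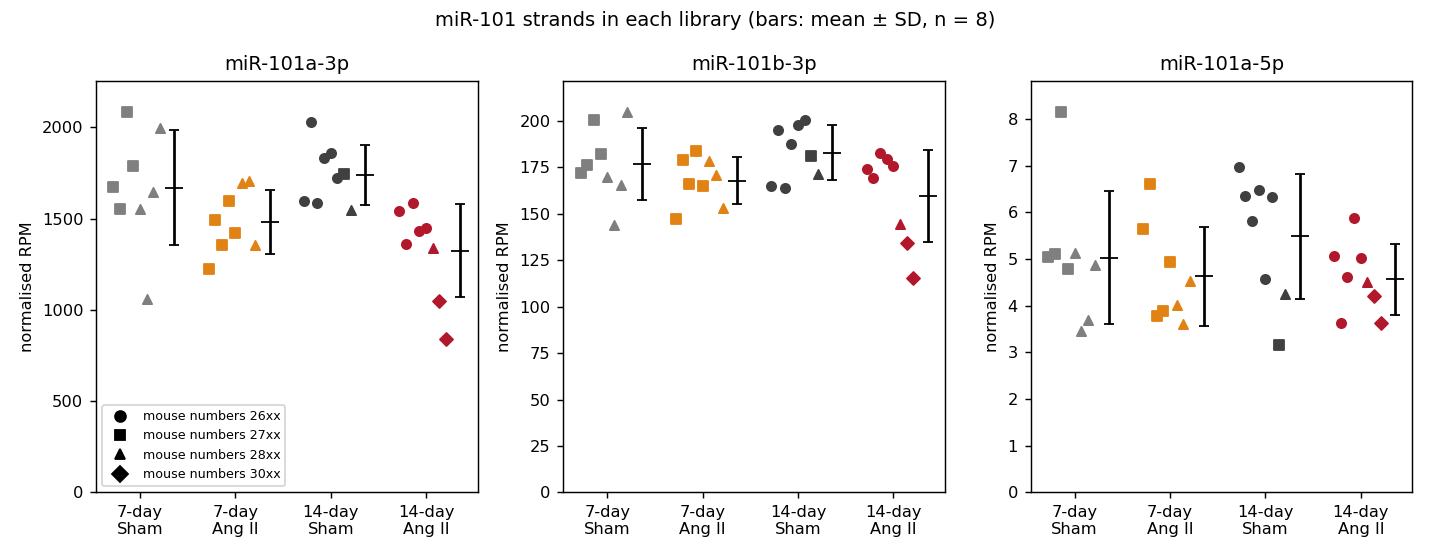
Normalised RPM (y axis, from 0) of miR-101a-3p, miR-101b-3p and miR-101a-5p in each of the 32 libraries, by group (x axis). Each point is 1 library, its shape gives the mouse-number series, and bars are mean ± SD (n = 8). The 2 libraries of series 30 in 14-day Ang II are the lowest of that group for miR-101a-3p, at 839 and 1048 RPM.

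miR-101b-3p ran from 164 through a median of 184 to 200 RPM in 14-day Sham and from 115 through 172 to 183 RPM in 14-day Ang II. All 8 Ang II libraries lay below the sham median, but only 3 lay below every sham library. Its log2 fold change was -0.21 ± 0.09 (SE). miR-101a-5p had means of 5.49 ± 1.34 and 4.57 ± 0.763 RPM (SD, n = 8 each), with all 8 Ang II libraries below the sham median and none below every sham library. Its log2 fold change was -0.20 ± 0.14 (SE). At a limma adjusted p under 0.05, 1 of the 3 strands was past the threshold, beside 6.45% of all 543 rows in either direction and 2.03% in the lower direction. With library totals 1 row was called lower and 22 higher, against 11 and 24. Since the strand was picked for this, nothing is read from that count.

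The 14-day differences of miR-101a-3p and miR-101b-3p were smaller within mouse-number series 26 and without series 30, while that of miR-101a-5p was -0.28 within series 26 and -0.15 without series 30, against -0.20. The lowest 2 Ang II libraries, replicates 7 and 8, are the only ones of series 30, in which no sham library fell, so the series and the treatment cannot be told apart there. Without these 2 libraries, a choice made after the data were seen, the log2 fold change was -0.26 ± 0.11 (SE) for miR-101a-3p and -0.10 ± 0.08 (SE) for miR-101b-3p. Within series 26 (6 sham and 5 Ang II libraries) the values were -0.26 and -0.06. There miR-101a-3p ran from 1585.97 to 2030 RPM in sham and from 1361 to 1585.21 RPM with Ang II, so the ranges all but touched. The ranges of miR-101b-3p, 164 to 200 and 169 to 183 RPM, overlapped.

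The difference also rested on how the libraries were scaled. A further scale was the share of the reads summed over each library's distinct rows. On it miR-101a-3p was 0.174% ± 0.0477 in the 8 libraries of 14-day Sham and 0.159% ± 0.0520 in the 8 of 14-day Ang II (SD). The ranges on that scale, 0.115% to 0.238% and 0.101% to 0.263%, overlapped nearly whole, and the highest of the 16 was an Ang II library. With library totals in place of the authors' scaling, the log2 fold change of miR-101a-3p was -0.14, that of miR-101b-3p was 0.061 and that of miR-101a-5p was 0.012. The same scaling moved the median of all 543 rows to 0.23. Relative to that median the 3 strands stood at -0.37, -0.17 and -0.21, and with the authors' scaling the median of all rows was 0.002. With TMM the value of miR-101a-3p was -0.40 and with RLE -0.42. The summed RPM of a library was 1.26 ± 0.288 M in 14-day Sham and 1.10 ± 0.228 M in 14-day Ang II (SD, n = 8 each).

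**Figure D2:**
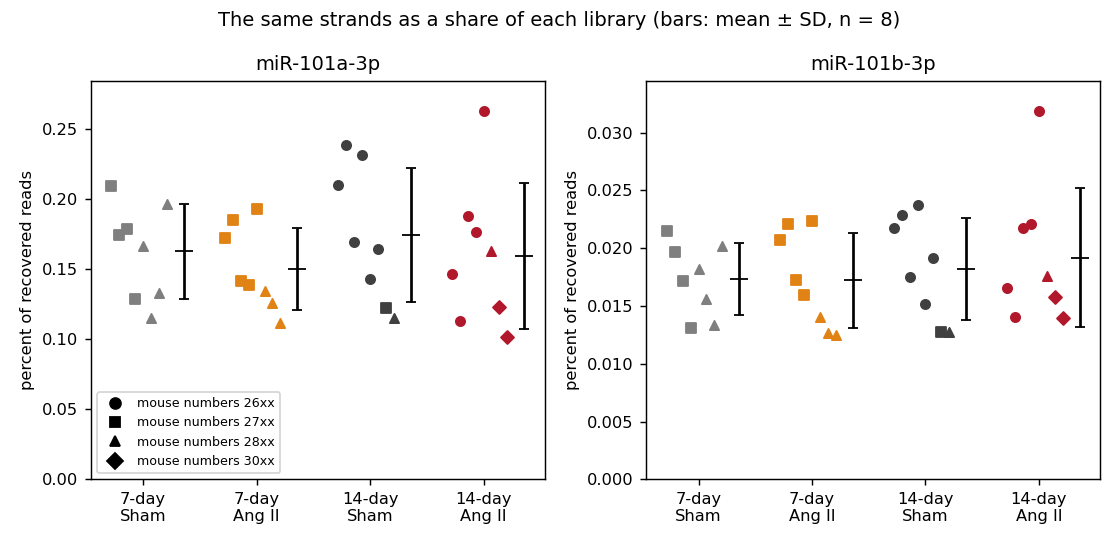
miR-101a-3p and miR-101b-3p as a percent of the recovered reads summed over the distinct rows of each library (y axes, from 0), by group. Points, shapes and bars are as before (mean ± SD, n = 8). On this scale the 14-day groups overlap, with means of 0.174% and 0.159% for miR-101a-3p and 0.0182% and 0.0192% for miR-101b-3p.

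**Figure D3:**
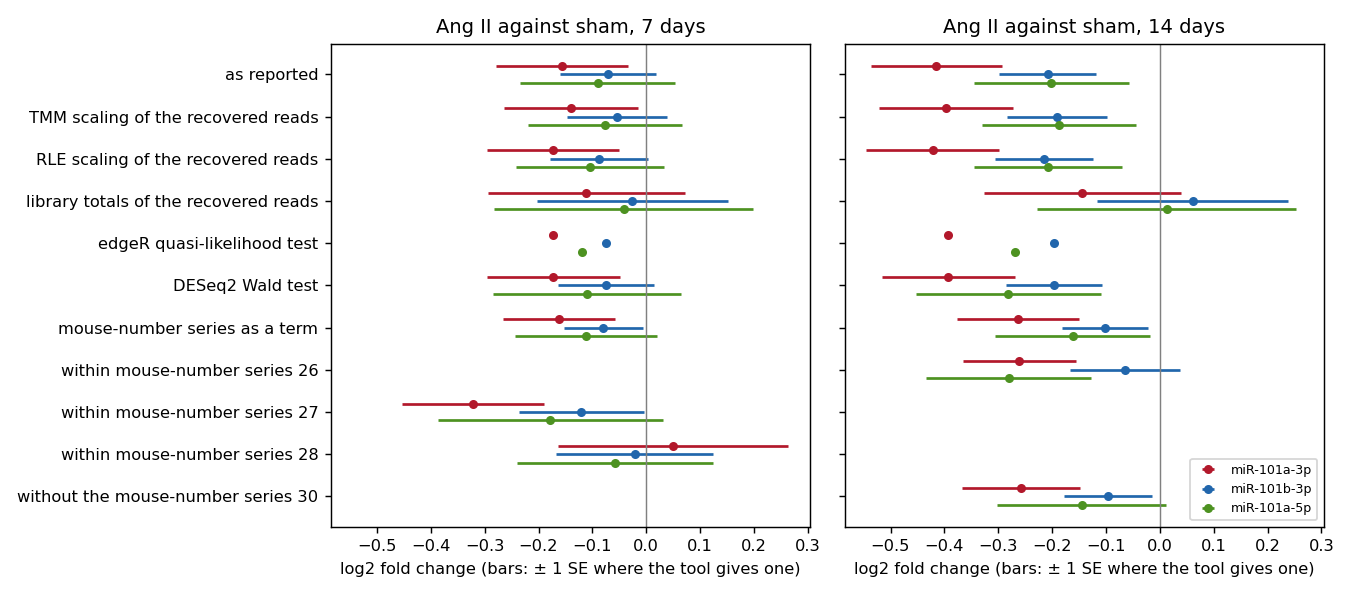
Log2 fold change of Ang II against sham (x axis) at 7 and at 14 days for the 3 tested strands under each scaling, test or subset (y axis), with bars of 1 SE where the tool gives one. At 14 days miR-101a-3p runs from -0.42 with RLE scaling to -0.14 with library totals, where miR-101b-3p stands at 0.061.

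Over the 4 groups the mean level of miR-101a-3p was highest in 14-day Sham, followed by 7-day Sham, 7-day Ang II and 14-day Ang II. Each neighbouring pair in this order differed by less than the SD of at least 1 of the groups. miR-101b-3p had the same order, with means of 183 ± 14.7, 177 ± 19.5, 168 ± 12.9 and 159 ± 24.8 RPM (SD, n = 8 each). The sham groups differed by a log2 value of 0.08 ± 0.12 (SE) for miR-101a-3p and 0.05 ± 0.09 (SE) for miR-101b-3p. The difference between the Ang II effects, 14 days minus 7 days, was -0.26 ± 0.17 (SE) for miR-101a-3p and -0.14 ± 0.13 (SE) for miR-101b-3p. It was not tested, since it holds the contrast on which the members were chosen.

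The ratio of miR-101b-3p to miR-101a-3p within a library does not depend on how the library is scaled. In 7-day Sham miR-101b-3p was 9.60% to 13.6% of miR-101a-3p, with a median of 10.3%, and in 7-day Ang II 10.0% to 12.2%, with a median of 11.6%. Of the Ang II libraries, 7 of 8 lay above the sham median, and none above the highest sham library. The log2 ratio was higher by 0.09 (n = 8 each, exact two-sided permutation p = 0.214, adjusted p = 0.427 over 2 ratios). Within series 27 all 5 Ang II libraries, 11.5% to 12.2%, lay above all 4 sham libraries, 9.60% to 11.3% (log2 difference 0.20, exact permutation p adjusted over 2 ratios = 0.0159). Within series 28 the log2 difference was -0.07 (exact permutation p adjusted over 2 ratios = 0.743), and without 7-day Sham replicate 6 of all libraries it was 0.13 (exact permutation p adjusted over 2 ratios = 0.0354). Replicate 6 had the highest ratio of its group, 13.6%, so leaving it out raises the difference by itself. Series 27 and the set without replicate 6 were the only 2 of 20 alternatives past the threshold. Of the others, 17 kept the direction and stayed above the threshold, and 1 was reversed. The p-values are not adjusted over the alternatives.

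At 14 days miR-101b-3p was 9.62% to 11.6% of miR-101a-3p in sham and 10.8% to 13.8% with Ang II. All 8 Ang II libraries lay above the sham median and 5 of 8 above every sham library. The log2 difference was 0.21, and it was 0.20 within series 26 and 0.16 without series 30. The means were 10.5% ± 0.601 and 12.2% ± 0.942 (SD, n = 8 each), given without a test. The ratio of miR-101a-5p to miR-101a-3p was 0.302% ± 0.0540 and 0.320% ± 0.0944 in 7-day Sham and 7-day Ang II (SD, n = 8 each, exact permutation p = 0.671, log2 difference 0.07). At 14 days it was 0.317% ± 0.0810 in sham (SD, n = 8) and 0.352% ± 0.0588 with Ang II (SD, n = 8).

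**Figure D4:**
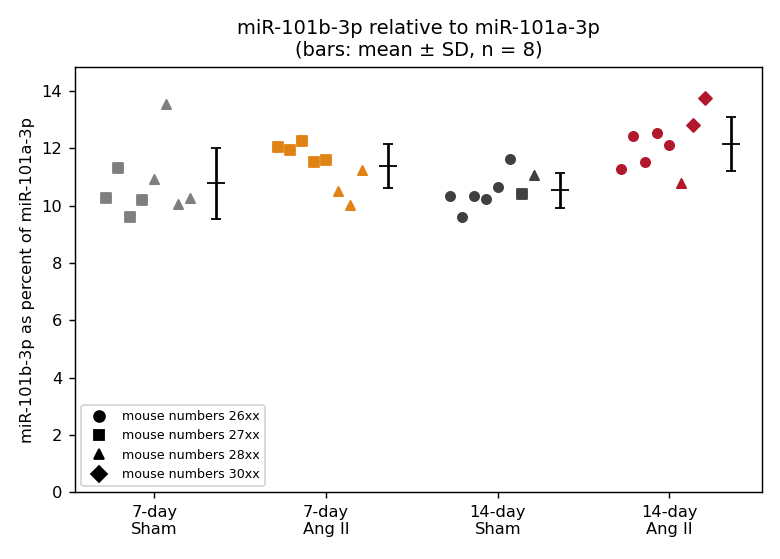
Level of miR-101b-3p as a percent of that of miR-101a-3p in the same library (y axis, from 0), by group, with points for libraries, shapes for mouse-number series and bars for mean ± SD (n = 8). In 14-day Ang II the libraries run from 10.8% to 13.8%, and in 14-day Sham from 9.62% to 11.6%.

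The strands of the a and b hairpins varied together between libraries of a group. With group means taken off, Pearson's r of miR-101a-3p and miR-101b-3p over 32 libraries was 0.91 and Spearman's rho was 0.87 (permutation p = 1e-05 each, the smallest that 100000 resamples give, and 1e-05 adjusted over 4 relations). Without the 2 libraries farthest from the median, 14-day Ang II replicate 8 and 7-day Sham replicate 6, r was 0.86. The strands share each library's scaling and most of their sequence. The p-values therefore cannot separate a shared level from shared scaling or sequence. The spread within groups was 0.24 log2 units for miR-101a-3p and 0.17 for miR-101b-3p, and miR-101b-3p moved by 0.62 log2 units per unit of miR-101a-3p. The 2 arms of the a hairpin were less alike, with r of 0.33 (permutation p = 0.0659) and rho of 0.22 (permutation p = 0.219), and r of 0.15 without the same 2 libraries. However, miR-101a-5p had only 27 to 170 reads per library, against 14897 to 48913 for miR-101a-3p. The part of counting error in this lower r was not tested.

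**Figure D5:**
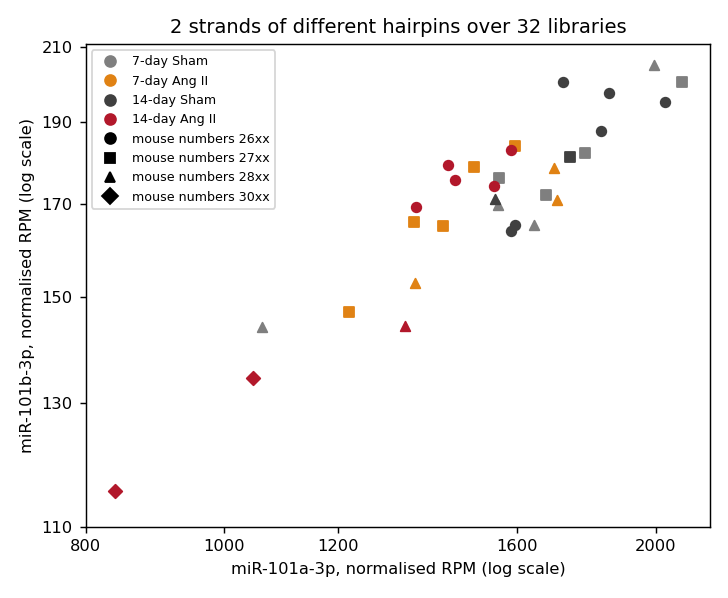
Normalised RPM of miR-101b-3p (y axis, log scale) against that of miR-101a-3p (x axis, log scale) in 32 libraries, coloured by group and shaped by mouse-number series. The libraries lie along 1 line from 839 and 115 RPM to 2087 and 200 RPM.

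Of 277 other miRNAs with a mean of at least 10 RPM, the 5 with the pattern most like that of miR-101a-3p over the 32 libraries, group means taken off, were Novel_y_47 (r = 0.78), Novel_z_6 (r = 0.75), miR-153-3p (r = 0.67), miR-30e-5p (r = 0.66) and miR-19b-3p (r = 0.66). The files place neither of the unnamed entries. The median r over all 277 was -0.01. Least alike were let-7e-5p (r = -0.61), miR-423-5p (r = -0.58) and miR-320-3p (r = -0.56). These values describe the libraries, which share scaling and depth, and they carry no test. Of the 5 most alike, those other than Novel_y_47 had 14-day log2 fold changes of -0.41 to -0.22 and were not called (limma adjusted p 0.124 to 0.283). Novel_y_47 was called lower at 14 days (log2 fold change -0.61 ± 0.17 SE, limma adjusted p = 0.0296), beside 6.45% of all 543 rows called in either direction. It was called under 21 of 30 alternatives (adjusted p 0.0118 to 0.323), and without series 30 its log2 fold change was -0.50 (limma adjusted p = 0.0783).

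Relatives by seed were measured as well. miR-144-3p, which shares bases 2 to 7 with miR-101a-3p, averaged 59.0 ± 41.6 RPM in 14-day Sham and 108 ± 42.5 RPM in 14-day Ang II (SD, n = 8 each). Its log2 fold change of 1.00 ± 0.34 (SE) had the opposite sign to that of miR-101a-3p and missed the threshold (limma adjusted p = 0.0698). It passed under 5 of 30 alternatives (adjusted p 0.0157 to 0.220), among them those without series 30, without 14-day Sham replicate 5 and without 14-day Ang II replicate 8, with log2 fold changes of 1.37, 1.22 and 1.18. At 7 days it was 0.46 ± 0.34 (SE, limma adjusted p = 0.861). miR-582-5p, which shares bases 2 to 7 with miR-101b-3p, had a mean of 0.897 RPM and was not tested.

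Other miRNAs known to repress Ezh2 in other systems were taken as a list of 5, miR-26a-5p, miR-26b-5p, miR-138-5p, miR-214-3p and miR-124-3p. At 7 days 0 of 5 passed the test, with a median log2 fold change of -0.27 against -0.01 over all 543 rows. At 14 days 1 of 5 fell and 0 rose, beside 2.03% of all rows called lower and 4.42% called higher, with a median of 0.10 against 0.002 over all rows. The member that fell was miR-26b-5p, from 2796 ± 254 to 2316 ± 240 RPM (SD, n = 8 each, log2 fold change -0.27 ± 0.09 SE, limma adjusted p = 0.0493). That call was marginal: it held under 10 of 30 alternatives and under 3 of the 16 that left out 1 library (adjusted p 0.0165 to 0.994 over the 30), and with library totals the log2 fold change was -0.0025. Its abundant relative miR-26a-5p, which has the same seed, stood at 56085 ± 6391 and 58582 ± 12124 RPM (SD, n = 8 each, limma adjusted p = 0.821). miR-214-3p, which is made with miR-199a from the Dnm3os transcript, had a log2 fold change of 0.41 ± 0.17 (SE, limma adjusted p = 0.117). Without 14-day Ang II replicate 3 it was 0.55 (limma adjusted p = 0.0299), and the range over 30 alternatives was 0.0299 to 0.498.

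Markers of cell types were read in the same 14-day libraries, where 4.42% of all 543 rows were called higher and 2.03% lower. Of all rows, 49.9% had a fold change below 0. Smooth muscle markers had 0 of 4 called and 1 of 4 above 0, with a median of -0.07 on the log2 scale. They summed to 317571 to 739444 RPM in sham and 196039 to 565287 RPM with Ang II. Of the red blood cell markers, which include miR-144-3p, 4 of 4 strands had a fold change above 0 and 2 rose. Those were miR-451a (log2 fold change 0.99 ± 0.27 SE, limma adjusted p = 0.0296) and miR-144-5p (1.16 ± 0.36 SE, limma adjusted p = 0.0493). The call of miR-144-5p lay close to the threshold. This list summed to 5948 to 50259 RPM in sham and 14971 to 53130 RPM with Ang II. Epithelial markers (the miR-200 family, miR-203 and miR-205) had 0 of 10 tested strands above 0, of which 1 fell. That strand was miR-203-3p (log2 fold change -0.52 ± 0.13 SE, limma adjusted p = 0.0174). Epithelial strands summed to 1353 to 5070 RPM in sham and 1131 to 1767 RPM with Ang II. Endothelial markers had 0 of 2 called, 0 of 2 above 0 and a median of -0.33 on the log2 scale, and summed to 16900 to 35282 RPM in sham and 12975 to 25109 RPM with Ang II. Pancreas markers (miR-216a, miR-217 and miR-375) had 0 of 3 called and 0 of 3 above 0, with a median of -0.40, and summed to 1856 to 7942 and 1812 to 3284 RPM. The sums of the sham and Ang II libraries overlapped for each of these lists. All marker values are on the authors' scaling only. The part of these in the level of miR-101 was not tested. In bulk tissue, fewer cells of a type and less RNA per cell cannot be told apart.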

How the data were processed

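Per the labels' protocols, TruSeq small RNA libraries were made from 1 µg of total RNA of mesenteric arteries. The submitters' processing notes name edgeR 3.6.8, STAR 2.3.1, FastQC, R 3.2.3 and bcl2fastq 1.8.4 and the build mm10, without their roles. How multiply mapped reads were counted, and with which annotation, is not given in the sources used here. The authors deposited a normalised signal per miRNA row and library. All values (100% within 0.001 read) were whole multiples of 1 read, so reads were recovered. Of repeated names the highest row was used, rows at 0 throughout were dropped and rows with equal reads were merged, which left 1030. Those with a mean of at least 1 RPM (543) were tested with limma-trend (limma 3.58.1 in R 4.3.3) on log2(value + 1) in 1 model of the 4 groups, with Benjamini-Hochberg adjustment over all of them. Fold changes are on that scale and understate changes of rare strands. Ratios within libraries were compared by exact two-sided permutation tests. Alternatives used TMM, RLE or library totals, pseudocounts of 0.5 and 10, other filters, edgeR 4.0.16 quasi-likelihood and DESeq2 1.42.0 tests on the recovered reads, the compared groups alone, the mouse-number series or a first principal component, taken within groups, as a term, and each library left out. The alternatives for miRNAs outside the family, and the fit without mouse-number series 30, were chosen after seeing the data. Sequences are from RefSeq, places from GENCODE M21 on GRCm38.

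The members, lists and rules were chosen with earlier results of these data known. Named miRNAs were all members, the 5 most and 3 least like miR-101a-3p by r, relatives sharing bases 2 to 7 and the Ezh2 list. Of the marker lists, those of smooth muscle, endothelium, red blood cells, epithelium and pancreas are described in the text. Leukocytes had 0 of 4 tested strands called at 14 days, striated muscle 0 of 3, neurons 0 of 2 and liver 0 of 1, beside 6.45% of all rows. Fold changes above 0 were found for 3 of 4 leukocyte strands, 0 of 3 of striated muscle, 1 of 2 of neurons and 1 of 1 of liver. The reads carry no molecular identifiers, so limits from counts cover counting error only. Since nothing states separate animals per library, p-values measure the spread between these libraries, which may be partly technical.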

Additional observations from a re-analysis of the deposited data

Results flagged for a closer look

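Levels and ratios of the members were searched for a library far from the others in 24 groups of 8, where chance flags about 1 in 20. Of these, 2 had such a library. miR-101a-5p stood at 8.16 RPM in 7-day Sham replicate 3, against 5.13 RPM in the next library. miR-101b-3p was 13.6% of miR-101a-3p in 7-day Sham replicate 6, against 11.3% in the next library, and the same library had the lowest miR-101a-3p level of its group, 1062 RPM.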

How the results depend on the processing

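Of 732 values recomputed under an alternative, 636 kept their direction and their side of the threshold, or moved by less than the spread. For the 14-day levels that spread, the SD within groups, was 0.24 log2 units for miR-101a-3p and 0.17 for miR-101b-3p. It is large beside their changes of -0.41 and -0.21. The value of -0.06 for miR-101b-3p within series 26 thus counts as kept. The total also holds the values of the near copy miR-101c. With library totals the 14-day log2 fold change was -0.14 for miR-101a-3p and for miR-101c, 0.061 for miR-101b-3p and 0.012 for miR-101a-5p, and the difference between the times was 0.087 for miR-101b-3p. Within mouse-number series 28 the 7-day value was 0.050 for miR-101a-3p and for miR-101c, the b to a ratio differed by -0.072 and the 5p to 3p ratio by -0.11. Within series 27 the b to a ratio differed by 0.20, past the threshold, and within series 26 the 14-day 5p to 3p ratio differed by -0.020. With the series as a term the sham groups differed by -0.0022 for miR-101a-3p and -0.048 for miR-101b-3p. The cause was not tested in any of these.

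Counts of called miRNAs at 7 days were 0 with library totals, 0 with the compared groups alone and 2 with the principal component as a term, against 1. At 14 days they were 23 with library totals, 17 with no filter, 54 with edgeR, 60 with DESeq2, 129 with the principal component as a term and 3 with the compared groups alone, against 35. With both near copies counted, the shares were 47.3% for miR-101a-3p, 5.30% for miR-101b-3p and 0.152% for miR-101a-5p.

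With each library left out, the 7-day count ran from 0 to 1 and the 14-day count from 21 to 42. The 7-day value of miR-101a-5p ran from -0.16 to 0.00054, the sham difference of miR-101a-3p from -0.011 to 0.13, the 7-day b to a ratio from 0.062 to 0.13 and the 5p to 3p ratio from -0.0097 to 0.13. The 14-day value of miR-26a-5p ran from -0.013 to 0.10. The 14-day value ran from -0.46 to -0.32 for miR-101a-3p and from -0.24 to -0.14 for miR-101b-3p. No paired analysis was possible because the labels give each library a number of its own. The rare miR-101a-5p and miR-101b-5p limit what their counts can show.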

Other observations

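The table holds a second row named miR-101c, listed directly after miR-101b-3p, which was not tested. It averaged 214 ± 39.0 RPM (SD, n = 32), 11.6% to 15.2% of miR-101a-3p, and exceeded miR-101b-3p in all 32 libraries, by 1.00 to 1.53 times. The files do not state at which locus its reads were counted. Its values were 231 ± 43.1 RPM in 7-day Sham, 197 ± 21.6 in 7-day Ang II, 238 ± 31.1 in 14-day Sham and 188 ± 37.0 in 14-day Ang II (SD, n = 8 each). At 14 days 8 of 8 Ang II libraries lay below the sham median and 4 below every sham library. With group means taken off, the second row followed miR-101a-3p with r of 0.92 and rho of 0.85, and r of 0.85 without the 2 farthest libraries. It followed miR-101b-3p with r of 0.85 and rho of 0.76. Each permutation p was 1e-05, the smallest that 100000 resamples give. The rows share each library's scaling, and miR-101c is contained whole in miR-101a-3p. These p-values therefore cannot separate a shared level from shared scaling or sequence.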
